A study of Arabidopsis thaliana with 64 samples.

Results

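A set of 456 stretches of the Arabidopsis thaliana genome was defined by the repeated presence of a tagged EARLY FLOWERING 3 (ELF3) protein. The 456 sites are the peaks of the first list of ELF3pro::ELF3-MYC elf3-1 seedlings at 17 °C that overlap by at least 1 bp a peak in each of 4 further ELF3-MYC lists and overlap no peak of either INPUT list. They are 456 of the 43412 peaks of that list on chromosomes 1 to 5, and the 25 peak lists of the series hold 887611 peaks together. Because the 5 ELF3-MYC lists and the 2 INPUT lists chose the sites, their values in those lists are given as a description and no test was made on them.

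The series holds 64 samples of seedlings, 26 from chromatin immunoprecipitation (ChIP) and 38 RNA libraries of 16 lines. The 5 ELF3-MYC lists come from a line with the elf3-1 mutation that carries ELF3 fused to a MYC tag under the ELF3 promoter, at 17 °C (replicates 1 and 2) and 27 °C (replicate 2), and from the same transgene in elf3-1 crossed with ELF4-ox, at 17 °C and 27 °C (1 list each). Both lines therefore carry elf3-1, and the crossed line also overexpresses ELF4; their cultivar label is Col-0. Of the INPUT samples, that at 17 °C is labelled cultivar Col-0 and that at 27 °C cultivar ELF3-OX. For ChIP, seedlings were raised for 10 days at 17 or 22 °C with 8 h of light a day and 16 h of darkness, and the 27 °C samples were moved to that temperature for 2 h at the end of the light period. The material was whole seedlings pooled per sample, so every value averages over all cell types of the seedling. The other 18 lists come from anti-Flag (15 lists) or anti-HA (3 lists) precipitations at 17, 22 or 27 °C. They cover ELF3-ox (anti-HA), BdELF3-ox and StELF3-ox overexpressors, and ELF3pro lines named ELF3-Q15, ELF3-Q20, BdELF3 and ELF3-BdPrD, where Bd and St mark ELF3 of other plants, known from the study to be Brachypodium and potato. RNA came from pooled Col-0, elf3-1, ELF4-ox, elf3-1 X ELF4-ox, elf4-2, ELF3-ox and elf4-2 X ELF3-ox seedlings and from 9 further ELF3 transgene lines (BdELF3-ox, StELF3-ox, ELF3pro::BdELF3, ELF3pro::ELF3-Q0 #2 and #15, ELF3pro::ELF3-Q7 #6 and #17, and ELF3pro::ELF3-Q21 #7 and #23), grown for 10 days at 12, 22 or 27 °C. Thus the 27 °C of the RNA libraries is a growth temperature, while that of the ChIP lists is a short shift. No RNA library of an ELF3-MYC line was analysed here.

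ELF3 is the scaffold of the evening complex, in which it joins ELF4 to LUX, a DNA-binding protein of the MYB family. The complex forms around dusk and represses daytime clock, light-signalling and growth genes during the night. Warmth weakens its action, and seedlings that lack ELF3 elongate strongly and flower early; elf3-1 is a loss-of-function allele.

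The strongest ELF3-MYC peaks are not among the 456 sites. All of the first 12 peaks of the 17 °C replicate 1 list by p overlapped the other 4 ELF3-MYC lists, and all 12 also overlapped an INPUT peak. They lie at GI, PRR9, BBX28, LHCA1, PRR7, LNK1, LNK4, LNK3, PIF4, ELF3, SLD1 and a place with no gene end nearby, and GI, PRR9, PRR7 and PIF4 are known targets of the evening complex. The INPUT peaks under these 12 had a −log10 p between 1.01 and 5.23, against 102 to 192 for the ELF3-MYC peaks themselves. In all, 331 peaks met every other condition and lay on an INPUT peak, with a median INPUT −log10 p of 2.09. The 27 °C INPUT list holds 50340 peaks, of which 30 have q under 0.05, and the 17 °C INPUT list 12033, of which 0 do. The requirement of no INPUT overlap thus removed the top of the list through INPUT peaks of low significance. Of the first 60 peaks, 22 are sites and 36 lie on INPUT peaks; of the first 200, 61 are sites, 73 lie on INPUT peaks and 66 were missed by a list.

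The sites fall into a small strong group and a large weak one. In the 17 °C replicate 1 list, 61 sites rank in the first 200, 70 rank after 200 and up to 2000, and 325 (71.3%) rank later. The first group makes up 61% of the 100 peaks of that rank that are off INPUT, the second 5.49% of 1276 and the third 1.05% of 31046. The median −log10 p of the 3 groups was 20.8, 5.37 and 2.58, and the median fold enrichment given by the authors' peak caller was 7.06, 3.17 and 2.22. Their median widths were 755, 435 and 288 bp. The overlap that let a site in was often small: its smallest overlap with the 4 lists had a median of 81 bp, was under 10 bp for 33 sites and was 1 bp for 2 sites, which rank 1832 and 5457. Just outside, 5 peaks that ranked between 2983 and 23158 abutted a peak of the list that they missed.

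At 27 °C most sites rest on faint peaks. The number of sites whose overlapping peak had q under 0.05 was 170 in the 17 °C replicate 1 list, 180 in 17 °C replicate 2, 38 in 27 °C replicate 2, 70 in the ELF4-ox cross at 17 °C and 105 in the cross at 27 °C. These lists hold 4488, 2832, 579, 1722 and 1684 peaks of that kind, so the lists differ in how many strong peaks they have to offer, and no direction is read from the counts. In 16 sites the overlapping peak had q under 0.05 in all 5 lists. Of these, 14 lie apart from a stretch of chromosome 4 that is described later, at DOG1/CIPK20, LHCA4, AT3G08460, COL5, PSAD-2, LHCB1.1, LHCA3, LHCB1.3, AT1G73480, AIRP2/LHCB4.1, AT3G53830, AT4G35840, NF-YA1 and a place with no gene end nearby.

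**Figure D1:**
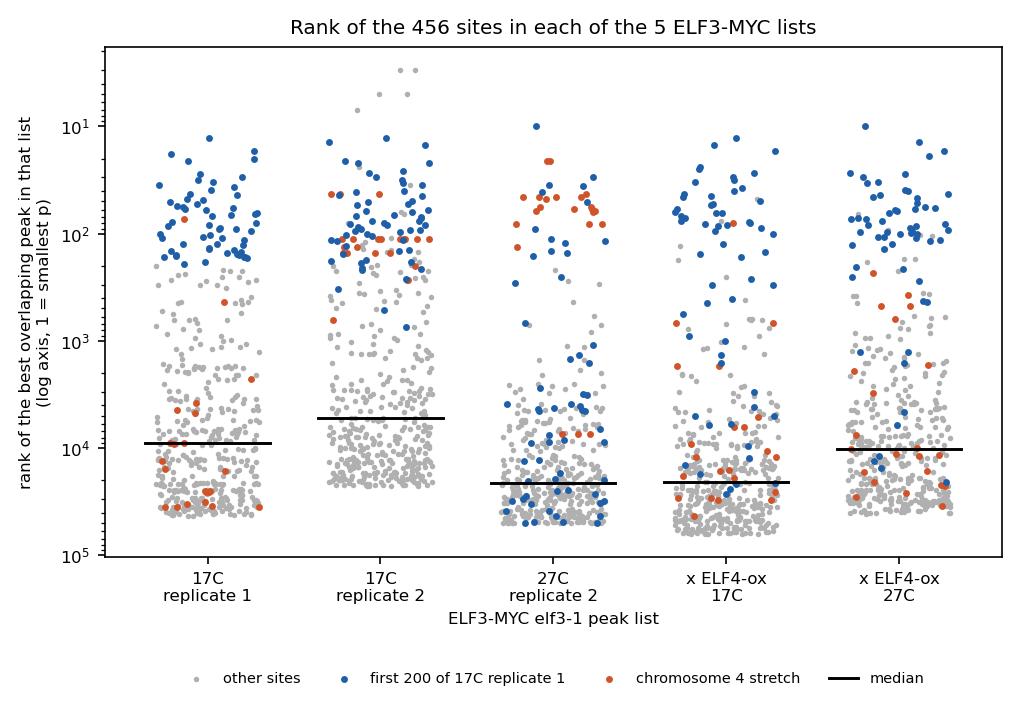
Rank of each of the 456 sites in the 5 ELF3-MYC lists (log axis, 1 is the smallest p; the lists hold 43412, 22815, 50350, 63373 and 41138 peaks from left to right). Each point is the best overlapping peak of a site, blue for sites in the first 200 of 17 °C replicate 1, orange for the 22 sites of a chromosome 4 stretch and grey for the rest, and black lines are medians (9020, 5289, 21007.5, 20775 and 10142.5). The sites of the first 200 reach rank 739 at most in 17 °C replicate 2, 26646 and 20673 in the cross at 17 and 27 °C, and 50244 in 27 °C replicate 2.

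Genes of the photosynthetic apparatus lay at both strong and weak sites. A gene was counted as a site gene when either of its ends lay within 1000 bp of a site's summit, which gave 541 site genes for 338 of the 456 sites. Of 16 listed light-harvesting genes, 8 were site genes (50%). The list holds genes of the chlorophyll-binding antenna proteins of the photosystems and also RBCS1A, a Rubisco gene. RBCS1A was not a site gene. Of 43 photosystem and antenna genes found by symbol, a list chosen after the values were seen, 17 were (39.5%), at sites that rank from 17 to 41721. For comparison, 541 of all 32548 loci (1.66%) were site genes.

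The sites at LHCA4, LHCA3, LHCB1.1 and LHCB1.3 ranked high in every ELF3-MYC list, while those at LHCB2.2, LHCB3 and LHCB1.2 ranked 8519, 12857 and 22293 in 17 °C replicate 1. The site at LHCA4, an antenna protein of photosystem I (chr3:17493545-17495515, TAIR10), ranked 17 in 17 °C replicate 1, 15 in 17 °C replicate 2, 30 in 27 °C replicate 2, 25 in the cross at 17 °C and 14 in the cross at 27 °C. The site at LHCA3, another photosystem I antenna protein (chr1:22699432-22700803), ranked 35, 34, 51, 13 and 17 in the same order. A pair of sites stands side by side at LHCB1.1 and LHCB1.3, near-identical copies of the main antenna protein of photosystem II. The LHCB1.1 site (chr1:10475837-10477218) ranked 30, 22, 36, 27 and 33, and the LHCB1.3 site (chr1:10477323-10478158) ranked 37, 22, 123, 32 and 44. Both overlap the same peak, of rank 22, in 17 °C replicate 2, so they are not independent there. The site at PSAD-2, a stromal subunit of photosystem I (chr1:754055-754670), ranked 28, 27, 90, 30 and 30.

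Other subunits had sites that were strong at 17 °C and in the cross but far down the 27 °C list. At PSAE-2, a stromal photosystem I subunit, the ranks were 49, 54, 8861, 84 and 57. At PSAH2, a photosystem I subunit at the docking side of the antenna, they were 51, 67, 49320, 45 and 34. At GUN5, the subunit of magnesium chelatase that binds the chlorophyll precursor, they were 55, 71, 19840, 71 and 74. The sites at PSBW and PSAO, small subunits of photosystems II and I, ranked 57 and 89 in 17 °C replicate 1 and 1090 and 31297 in the 27 °C list. Since each site was required to have some peak at 27 °C, these ranks show how weak that peak could be.

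Clock, flowering and light-signalling genes gave fewer but well known names. Of 24 listed evening complex and clock genes, 3 were site genes (CCA1, TOC1 and FKF1); of 9 flowering genes, 2 were (CDF2 and CDF3); and of 25 light-signalling and growth genes, 5 were (PIF4, PHYB, BBX25, BBX28 and BBX29). None of 8 heat shock genes and none of 6 root markers was a site gene. The site at CDF2, a DOF factor that represses the flowering gene CONSTANS (chr5:15878223-15879016), ranked 39, 53, 4259, 50 and 39. The site at COL5, a CONSTANS-like B-box protein (chr5:23355106-23355867), ranked 21, 26, 112, 38 and 28. The site at TOC1, an evening-expressed core clock repressor (chr5:24674326-24675139), ranked 90, 80, 9007, 267 and 425.

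CCA1, the morning-expressed MYB repressor of the clock, shares its site with PSI-P, a thylakoid protein (chr2:19245054-19245812). That site ranked 153, 95, 4095, 1624 and 94. The site at PHYB, the red-light photoreceptor that also senses temperature (chr2:8139331-8139939), ranked 270, 1287, 43373, 132 and 139. FKF1, a blue-light receptor that targets CDF proteins for degradation, had a site of ranks 1135, 223, 31715, 15298 and 171. The top site of all, chr5:18588313-18589970, lies between DOG1, a regulator of seed dormancy, and CIPK20, a protein kinase of calcium signalling, and ranked 13, 13, 41, 17 and 19.

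Some weak sites lie close to strong peaks that INPUT removed. Of the 456 sites, 43 (9.43%) lay within 2000 bp of a peak that met every other condition but lay on an INPUT peak, and for 19 of these that neighbour ranked in the first 200. The site of PIF4, the bHLH factor that drives elongation in warmth (chr2:17888411-17888816), ranked 7496, while the removed peak at PIF4 ranked 10. In the same way the sites of BBX28, LHCB3, LHCB2.2, BBX29, LHCB1.2 and PSBP-1 ranked 16429, 12857, 8519, 26475, 22293 and 41721, beside removed peaks of ranks 3, 25, 34, 19, 72 and 73. Naming these genes as site genes thus rests on a weak peak, although a far stronger ELF3-MYC peak lies at the same gene.

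The strong sites also differ in where they sit. The summit lay inside an annotated gene for 31.1% of the first 200 sites, 71.4% of those ranked after 200 and up to 2000, and 87.4% of the later ones. Among the off-INPUT peaks that are no sites, the shares in the same 3 rank groups were 51.3%, 76.8% and 76.1%. A gene end lay within 1000 bp of the summit for 88.5%, 72.9% and 71.7% of the sites. For the off-INPUT peaks that are no sites these shares were close, at 84.6%, 71.1% and 68.5%. The first sites are thus mostly between genes, and the last ones mostly within genes.

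The 18 anti-Flag and anti-HA lists were not used to choose the sites. A site was overlapped by a median of 6 of these lists, and by 14, 8 and 5 in the 3 rank groups. Off-INPUT peaks of 17 °C replicate 1 that are no sites were overlapped by a median of 2, and by 8, 3 and 2 in the same rank groups. The 331 peaks on INPUT were overlapped by a median of 8. These comparisons are descriptions, since peaks of a list are not replicates and wider peaks overlap more often: the median widths of the non-sites were 448, 233.5 and 183 bp.

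In each of the 18 lists the share of sites found was higher than the share of all off-INPUT peaks. It ranged from 21.7% to 62.5% with a median of 39.5%, against 13.3% to 35.4% with a median of 18.9%. The 18 lists cover between 4.32% and 9.96% of the genome. The 61 sites of the first 200 were found most fully in BdELF3-ox at 22 °C, where all 61 had a peak, and least in ELF3-ox at 27 °C replicate 1, where 41.0% did. The median share of these 61 sites was 62.3% over the 2 lists at 17 °C, 85.2% over the 8 at 22 °C and 63.1% over the 8 at 27 °C. For the 39 other off-INPUT peaks of that rank it was 43.6%, 51.3% and 42.3%, likewise highest at 22 °C. Both StELF3-ox lists count as 22 °C by their labels, though the name of 1 deposited file gives 27 °C. Lines, antibodies and peak numbers differ between these temperatures, so temperature cannot be told apart from them.

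A few sites were found in every list, and a few in none. The 8 sites overlapped by all 18 lists were at AT3G08460, LHCB1.1, AT1G21500, LHCA3, GUN5, PSBW, ACR8 and UGT89B1. All but the last rank between 18 and 103 in 17 °C replicate 1, and the site at UGT89B1 ranks 14979. By contrast 19 sites were in none of the 18, and the best rank among them was 5659. With a site gene, the first 6 of these by rank were the weak sites at PIF4 and LHCB1.2 and those at XIE, a myosin, AT2G37585, TRO and CML43, a calmodulin-like protein. Of the tested genes at these 6 sites, none was called in any of the 5 RNA comparisons except LHCB1.1 and LHCB1.2, described below.

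**Figure D2:**
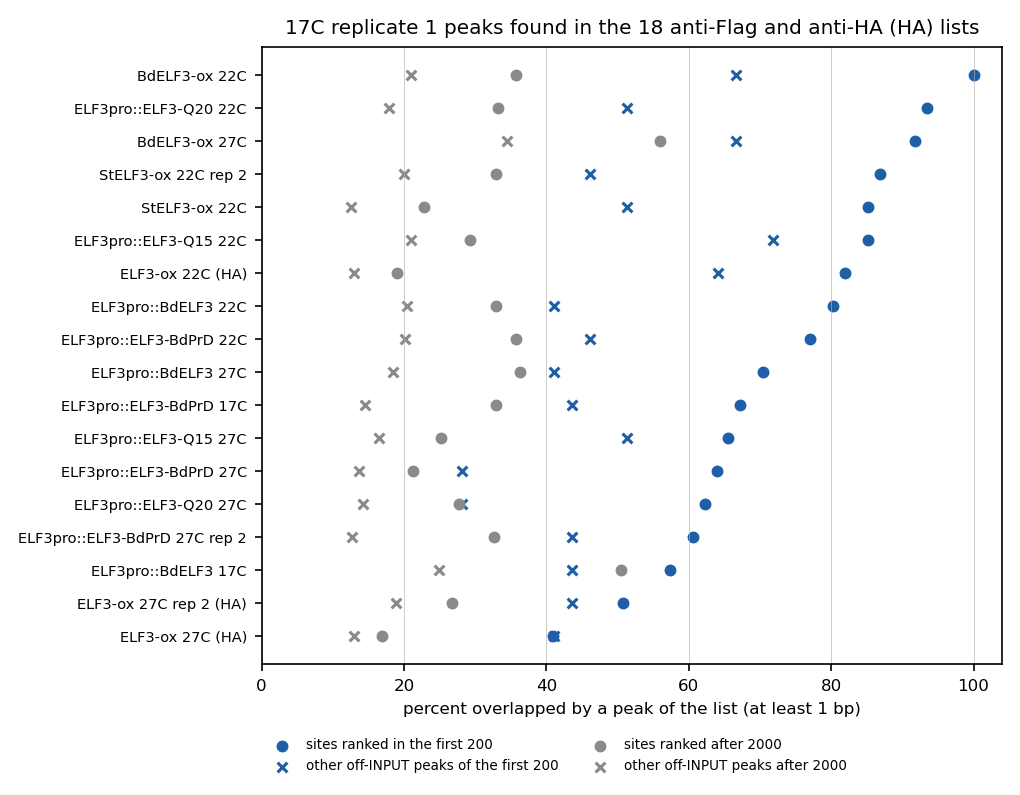
Percent of 17 °C replicate 1 peaks overlapped by at least 1 bp in each of the 18 lists that the rule did not use. Blue circles are the 61 sites ranked in the first 200 and blue crosses the 39 other off-INPUT peaks of that rank; grey circles are the 325 sites ranked after 2000 and grey crosses the 30721 other off-INPUT peaks. Circles lie to the right of crosses of the same colour in all lists but ELF3-ox at 27 °C replicate 1, where 41.0% of both blue groups were overlapped.

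A stretch of chromosome 4 stands apart from the rest. The largest run of sites with summits no more than 20000 bp apart lies at chr4:12936237-13006245, 70009 bp long, and holds 22 sites (4.82%) and 16 genes that are site genes nowhere else. In the 6 lists whose sample titles begin with 192, peaks covered 84.4% to 93.2% of this stretch, with single peaks up to 24328 bp wide. In the other 19 lists they covered 1.71% to 29.0%, INPUT included with 1.71% and 5.52%. The 3 ELF3-MYC lists whose titles begin with 189 gave 24.9%, 29.0% and 27.5%. The same line could fall on both sides: ELF3pro::BdELF3 had 84.4% at 17 °C and 86.2% at 27 °C under titles beginning with 192, and 10.3% at 22 °C under a title beginning with 176. The labels do not say what the leading digits of a title stand for.

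The stretch held many of the high-ranking sites of 27 °C replicate 2. Of the 32 sites that rank in the first 200 of 27 °C replicate 2, 19 lie in the stretch and the other 13 lie in the first 200 of 17 °C replicate 1 too. Of the 38 sites with q under 0.05 in that list 19 lie outside the stretch, and in the cross at 27 °C 99 of 105 do. A wide peak overlaps any narrower peak within it, so sites of the stretch could meet the overlap rule through such peaks in 17 °C replicate 2 and 27 °C replicate 2. The widest peaks of these lists in the stretch were 24328 and 5775 bp. How wide a peak each site met was not recorded. Results on the RNA of site genes are therefore given with and without the stretch, which was set apart after the values were seen.

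**Figure D3:**
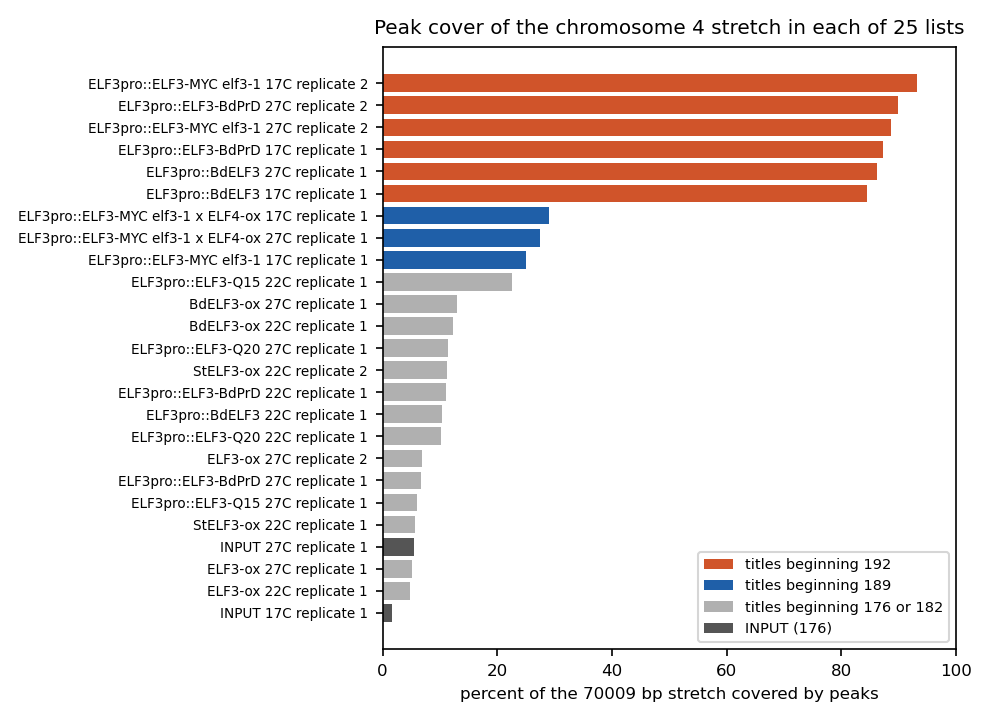
Percent of the 70009 bp chromosome 4 stretch covered by peaks in each of the 25 lists, by the first digits of the sample title. The 6 lists with titles beginning with 192 lie between 84.4% and 93.2% and all others at or below 29.0%.

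RNA was counted at the 3′ ends of transcripts, with 4381010 to 25649275 counts per library on genes (median 12076203). Levels are given as CPM, counts scaled to a common library total, which for 3′ counts do not depend on gene length. Of the 541 site genes, 406 passed the filter of at least 1 CPM in at least 3 libraries, as did 19587 genes in all. Most groups of a line and temperature hold 1 library, so all 38 libraries were fitted together with line, temperature and the leading digits of the title as terms. In whole seedlings, fewer cells of a type and less RNA per cell cannot be told apart. The mutated loci were only partly visible: ELF4 had 59.8 to 67.4 CPM in Col-0, 32.0 to 38.1 in elf4-2, 95.4 to 110 in ELF4-ox and 116 to 121 in elf3-1 X ELF4-ox. ELF3 had 17.2 to 29.9 CPM in Col-0, 17.5 to 26.6 in elf3-1 and 9.41 to 37.2 in ELF3-ox, so the 3′ count of this locus does not check the labels of either line.

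Site genes called on loss of ELF3 were all higher without it. In elf3-1 against Col-0, 18 of 406 site genes were higher and 0 lower, by edgeR's quasi-likelihood test with a Benjamini-Hochberg adjusted p under 0.05. The background over all tested genes was 0.403% higher and 0.296% lower, against 4.43% and 0% of the site genes. Without adjustment, 83 site genes had p under 0.05, 21 of them lower in elf3-1. The share of all tested genes with an unadjusted p under 0.05 was not computed for any comparison. DESeq2 called 26 higher (6.40%) and 1 lower (0.246%), beside 0.868% and 0.832% of all tested genes. In elf3-1 X ELF4-ox against ELF4-ox, 20 were higher and 0 lower (4.93%), against a background of 0.449% higher and 0.235% lower. Here 76 had an unadjusted p under 0.05, 9 of them lower. DESeq2 called 28 higher (6.90%) and 0 lower, beside 0.899% and 0.383% of all tested genes. The 2 comparisons share no library, though they share the fit's estimate of spread. The calls had 11 genes in common, which is 61.1% of the first and 55% of the second, and 27 genes were called in either. The same overlap over all called genes was not computed, so it is not known whether the sites differ in it.

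The median site gene hardly moved. The median log2 change over the 406 site genes was 0.03 in elf3-1 and 0.07 in the cross, beside −0.03 and −0.02 over all tested genes. It was larger near the strongest sites, with 0.29 and 0.50 over the 66 tested genes of the first 200 sites. Of these 66 genes, 6 were called higher in elf3-1 (9.09%) and 8 in the cross (12.1%). For 38 of the 66 (57.6%) both libraries of the cross lay above both of ELF4-ox, where 14.2% of all tested genes did, and for 1 both lay below, where 15.7% did. For 23 of the 66 (34.8%) both elf3-1 libraries lay above all 3 of Col-0, against 14.9% of all tested genes, and for 3 both lay below, against 15.5%. Strong sites thus had a larger share of genes with higher levels without ELF3 than the tested genes as a whole.

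Leaving out the chromosome 4 stretch lowers the first count. Of the 394 tested site genes outside it, 11 were higher in elf3-1 (2.79%), 16 in the cross (4.06%) and 7 in both. Of the 267 tested genes of sites ranked after 2000 and outside the stretch, 3 were higher in elf3-1 and 5 in the cross. Genes that also lie at a peak removed by INPUT added to these counts: among the 378 tested site genes outside the stretch with no such peak, 10 were higher in elf3-1 (2.65%) and 12 in the cross (3.17%). Of the 292 tested genes found only at INPUT-removed peaks, 15 were higher and 1 lower in elf3-1 (5.14% higher), and 25 were higher and 1 lower in the cross (8.56%).

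The counts depend on single libraries, among site genes and among all tested genes alike. Fits that left 1 library in a line of the comparison called fewer genes over all tested genes too. Without a Col-0 library, 3.20% (22 °C), 2.72% and 1.97% (27 °C replicates 1 and 2) of site genes were called higher in elf3-1. Over all tested genes the shares were 0.281%, 0.138% and 0.133%. Without the elf3-1 library at 22 °C, 0 site genes were called higher in elf3-1, and without that at 27 °C 7 were; without a Col-0 library the count was 13 (22 °C), 11 and 8 (27 °C replicates 1 and 2). In the cross it was 1 without ELF4-ox at 27 °C, 4 without ELF4-ox at 22 °C, and 5 and 6 without the cross at 22 and 27 °C. Within the pairs whose titles share their leading digits, the median log2 difference of all 406 tested site genes was 0.08 for elf3-1 at 22 °C, and 0.08 and 0.11 for the cross at 22 and 27 °C, beside −0.03, −0.02 and −0.01 over all tested genes. The summed level of 6 root markers differed between libraries. It was 102 to 168 CPM in elf3-1 and 54.5 to 72.9 in Col-0. In the cross it was 98.5 to 170, and in ELF4-ox 44.2 to 89.3. It was 82.4 to 241 in elf4-2, 55.7 to 254 in ELF3-ox and 80.8 to 173 in elf4-2 X ELF3-ox. The fitted log2 changes of the 6 markers had a median of 0.47 in elf3-1 and 0.02 in the cross, and 0 were called. The part of root content in the result was not tested. The fit was repeated without 2 libraries of other lines whose root marker sum was 0.362 and 1.85 CPM. Then 36 site genes were higher (8.89%) and 4 lower (0.988%) in elf3-1, beside 1.47% and 1.32% of all tested genes. In the cross 34 were higher (8.40%) and 1 lower (0.247%), beside 1.18% and 0.523%. Calls over all tested genes in both directions rose from 137 to 544 in elf3-1 and from 134 to 333 in the cross.

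**Figure D4:**
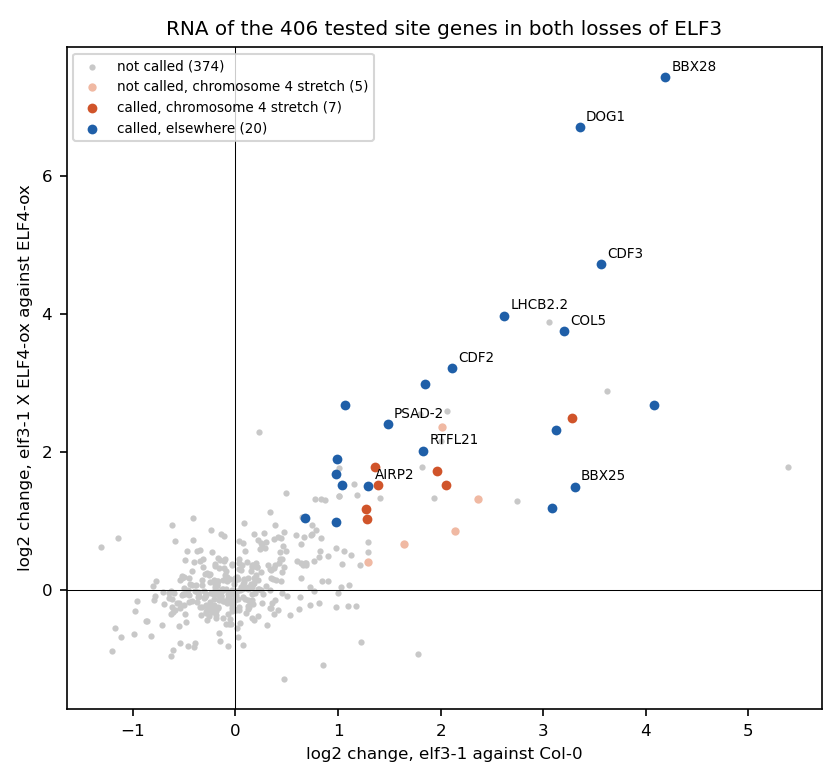
Log2 change of each of the 406 tested site genes on loss of ELF3 in Col-0 (horizontal axis) and in ELF4-ox (vertical axis). Blue marks the 20 genes outside the chromosome 4 stretch that were called higher in either comparison and orange the 7 called genes in the stretch; grey marks the 374 other genes and pale orange the 5 other stretch genes. The called genes lie in the upper right, and none was called lower on either axis.

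Both flowering genes at sites, CDF2 and CDF3, and the B-box genes COL5 and BBX28 were higher in both losses of ELF3. COL5 had 10.1, 12.6 and 14.2 CPM in the Col-0 libraries at 22 °C and 27 °C (replicates 1 and 2), and 83.3 and 93.0 in elf3-1 at 22 and 27 °C. In ELF4-ox it had 5.33 and 4.99 CPM and in the cross 71.0 and 67.8. All 4 libraries with elf3-1 lay above every other of the 38 libraries, the highest of which had 58.0. The log2 change was 3.21 ± 0.44 (SE, adjusted p = 0.000891) in elf3-1 and 3.75 ± 0.50 (adjusted p = 0.000524) in the cross.

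CDF2 had 4.88, 21.3 and 13.1 CPM in Col-0, 42.8 and 52.2 in elf3-1, 3.82 and 7.41 in ELF4-ox, and 39.0 and 63.5 in the cross. The groups did not overlap in either comparison, and the log2 changes were 2.11 ± 0.44 (adjusted p = 0.0243) and 3.22 ± 0.50 (adjusted p = 0.00215). CDF3, a related DOF factor whose site ranks 1944, was near the limit of detection in the controls. It had 0.207 to 0.887 CPM in Col-0 and 0.142 and 0.216 in ELF4-ox, and 4.51 to 6.38 in the 4 libraries with elf3-1. Its log2 changes were 3.56 ± 0.72 (adjusted p = 0.0211) and 4.73 ± 0.83 (adjusted p = 0.00594).

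BBX28, a B-box protein that lowers the activity of the light-signalling factor HY5, showed the same order. It had 0.376, 1.24 and 1.14 CPM in Col-0 and 11.3 and 15.5 in elf3-1. ELF4-ox had 0.0721 and 0.0712 CPM and the cross 7.18 and 22.8. The log2 changes of 4.19 ± 0.64 (adjusted p = 0.0024) and 7.43 ± 0.93 (adjusted p = 0.000241) rest on few counts in the controls. Its site is the peak of rank 16429 beside the removed peak of rank 3. BBX25, another B-box protein, had 0 to 0.376 CPM in Col-0 and 3.41 and 3.93 in elf3-1, a log2 change of 3.31 ± 0.56 (adjusted p = 0.00506). In the cross BBX25 had 2.80 and 3.95 CPM against 1.01 and 1.35, a log2 change of 1.5 ± 0.47 that did not pass (adjusted p = 0.228). BBX29 did not pass the filter on low counts.

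The clock genes at sites were not called on loss of ELF3. TOC1 had 25.5, 47.6 and 22.0 CPM in Col-0 and 29.5 and 34.3 in elf3-1, a log2 change of 0.21 ± 0.31 (adjusted p = 0.81). FKF1 had 8.08 to 8.87 CPM in Col-0 and 3.62 and 7.22 in elf3-1, a log2 change of −0.79 ± 0.25 (adjusted p = 0.152). CCA1 was at 1.2 CPM or less in all of these libraries. In the whole clock list, 4 of 23 tested genes were higher and 1 lower in elf3-1, and 7 were higher and 0 lower in the cross, so its called genes lie at no site of the set. PHYB had 10.1 to 14.6 CPM in Col-0 and 16.9 and 21.2 in elf3-1, a log2 change of 0.84 ± 0.24 (adjusted p = 0.112). PIF4 had 4.51, 11.4 and 22.5 CPM in Col-0 and 38 and 43.0 in elf3-1, and its log2 change of 2.06 ± 0.76 did not pass either (adjusted p = 0.218).

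**Figure D5:**
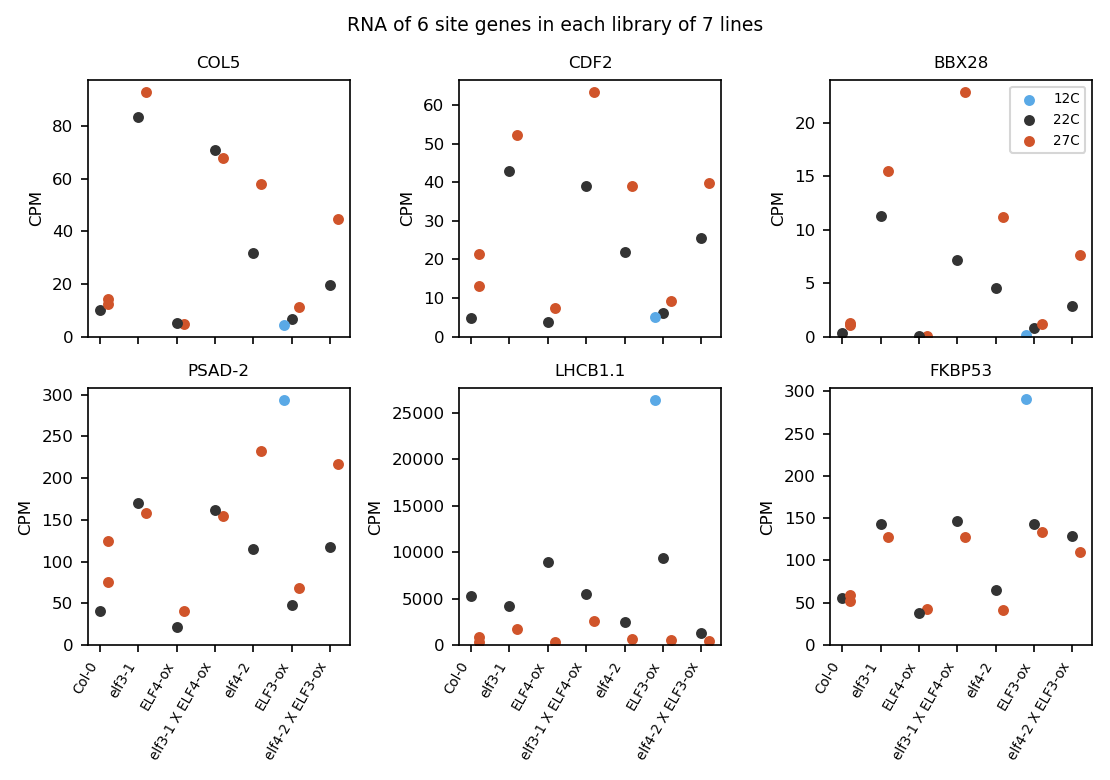
CPM (linear axes from 0, a scale for each gene) of 6 site genes in every library of 7 lines, each point a library grown at 12 °C (blue), 22 °C (black) or 27 °C (orange). COL5, CDF2 and BBX28 are higher in the lines with elf3-1 than in Col-0, ELF4-ox and ELF3-ox; LHCB1.1 follows temperature; FKBP53, from the chromosome 4 stretch, is at 109.6 CPM or more in every library with elf3-1 or ELF3-ox and at 65.1 or less in the others shown.

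All 17 photosystem and antenna site genes were tested. None was called in elf3-1, where 0.403% of all tested genes were higher, and 2 (11.8%) were higher in the cross, where 0.449% were, with median log2 changes of −0.05 and 0.38. In the whole light-harvesting list, 2 of 16 tested genes were higher in elf3-1 (12.5%) and 4 in the cross (25%). Of the 8 site genes of that list, 0 were higher in elf3-1 and 1 in the cross. A higher level in this family was thus not limited to genes at sites. PSAD-2 had 21.4 and 41.2 CPM in ELF4-ox and 162 and 154 in the cross, a log2 change of 2.41 ± 0.46 (adjusted p = 0.0109). In Col-0 it had 40.9, 76.0 and 124 CPM and in elf3-1 170 and 158, which did not overlap and did not pass (adjusted p = 0.106). LHCB2.2, an antenna protein of photosystem II, had 16.9 and 6.27 CPM in ELF4-ox and 185 and 177 in the cross, a log2 change of 3.98 ± 0.77 (adjusted p = 0.0132). In elf3-1 its log2 change was 2.62 ± 0.67 (adjusted p = 0.0683). Reads of LHCB2.2 and of the LHCB1 genes may be shared with near-identical copies, so their levels are uncertain.

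The antenna genes at sites did not move together. LHCA3 had 1311, 1002 and 691 CPM in Col-0 and 1191 and 1009 in elf3-1, and its log2 change of −0.05 ± 0.28 was within its error. LHCA4 had 1125 to 1838 CPM in Col-0 and 2152 and 1984 in elf3-1, a log2 change of 0.29 ± 0.36 (adjusted p = 0.774). LHCB1.2 had 4293 CPM at 22 °C and 2168 and 4430 at 27 °C in Col-0, and 2221 and 1371 in elf3-1 at 22 and 27 °C. These groups overlap only across temperatures, and at each temperature elf3-1 was lower. The log2 change of −1.12 ± 0.30 did not pass (adjusted p = 0.0921). LHCB3 had 278 to 756 CPM in Col-0 and 1083 and 1031 in elf3-1. Its log2 changes of 0.75 ± 0.56 and 0.95 ± 0.57 did not pass although the groups did not overlap (adjusted p = 0.58 and 0.802).

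Other genes called in both comparisons have varied roles. AIRP2, a RING ubiquitin ligase of abscisic acid signalling that shares its site with LHCB4.1, had 2.64 to 3.90 CPM in Col-0 and 8.09 and 9.31 in elf3-1. Its log2 changes were 1.29 ± 0.24 (adjusted p = 0.0124) and 1.51 ± 0.25 (adjusted p = 0.0044), while LHCB4.1 stayed at −0.30 ± 0.28 and −0.01 ± 0.29. ABF3, a bZIP factor of the same hormone, changed by 0.98 ± 0.21 and 0.99 ± 0.22 (adjusted p = 0.0268 and 0.0317). RTFL21, of a family of small growth-restricting peptides, changed by 1.83 ± 0.37 and 2.02 ± 0.40 (adjusted p = 0.0221 and 0.0153).

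Some genes were called in 1 of the comparisons. DOG1, at the top site, had 0, 0.887 and 1.24 CPM in Col-0 and 3.72 and 4.01 in elf3-1 (adjusted p = 0.104). In ELF4-ox it had 0.0721 and 0 CPM and in the cross 2.23 and 7.96 (adjusted p = 0.0155). GRF7, a growth-regulating factor, was called in elf3-1 (3.08 ± 0.64, adjusted p = 0.0244), and CKX5, which degrades cytokinins, in the cross (2.99 ± 0.56, adjusted p = 0.0087). A call in 1 comparison only does not show a difference between them. In the test of that difference 0 of 406 site genes were called by edgeR, while 22 had an unadjusted p under 0.05. DESeq2 called 0 as well. With 2 or 3 libraries in each line, this test could miss a difference. Over all genes that test called 0% as larger and 0.00511% as smaller in the cross.

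ELF3-ox and elf4-2 libraries were set beside the called genes as a description, since the libraries with elf3-1 and Col-0 had already chosen these genes. For all 20 called genes outside the stretch, both ELF3-ox libraries at 22 and 27 °C lay below all 4 libraries with elf3-1, and for 14 they lay no higher than the highest Col-0 library. The shares of all tested genes in these orders were not computed. Choosing genes that are high in the lines with elf3-1 favours such an order, so nothing further is read from these counts. The gap could be small: RTFL21 had up to 24.20 CPM in ELF3-ox and at least 24.22 in the libraries with elf3-1. For 8 of the 20, both elf4-2 libraries lay above all 3 of Col-0, as they did for 12.1% of all tested genes. COL5 for example had 6.72 and 11.4 CPM in ELF3-ox, and 31.6 and 58.0 in elf4-2. Of the 27 called genes 9 overlap another annotated gene, among them PSAD-2, BBX25, ABF3, CKX5 and GRF7, and whether counting used strand is not stated, so reads of such pairs could not be told apart.

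The stretch genes behaved differently. All 12 tested genes of the stretch were higher in both elf3-1 libraries than in all Col-0 libraries, against 14.9% of all tested genes. Of the 12, 7 were called in elf3-1 and 4 in the cross, against 0.403% and 0.449% of all tested genes, and the median log2 changes were 1.80 and 1.42. FKBP53, a histone chaperone, had 52.4 to 59.5 CPM in Col-0 and 143 and 127 in elf3-1, a log2 change of 1.36 ± 0.19 (adjusted p = 0.00116). In ELF4-ox it had 37.3 and 42.2 CPM and in the cross 147 and 127 (1.78 ± 0.21, adjusted p = 0.000141). It was as high in ELF3-ox, with 143 and 134 CPM, so here ELF3-ox did not lie with Col-0.

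Over all lines, 3 of the 12 stretch genes fell into groups without overlap. In the 31 libraries of lines with elf3-1 or an ELF3 transgene FKBP53 had 106 to 328 CPM, and in the 7 libraries of Col-0, elf4-2 and ELF4-ox 37.3 to 65.1. This split was chosen after the values were seen. The groups were likewise apart for AT4G25315 (10.8 to 23.8 against 5.25 to 8.05 CPM) and AT4G25290 (1.74 to 5.12 against 0.570 to 1.38). Such a split with no overlap held for 3 of the 12 stretch genes and 0 of the 394 other tested site genes, against 0.0204% of all tested genes. Only 1 of the 7 called stretch genes, AT4G25260, had both ELF3-ox libraries below all libraries with elf3-1. The share of all tested genes in that order was not computed.

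Loss of ELF4 gave no calls among site genes. In elf4-2 against Col-0, 0 of 406 were higher or lower by edgeR, against a background of 0.0306% higher and 0.0511% lower. Of the 406, 37 had an unadjusted p under 0.05. DESeq2 called 4 higher (0.985%), where it called 0.102% of all tested genes higher. In elf4-2 X ELF3-ox against ELF3-ox, edgeR called 0, against a background of 0.0255% higher and 0.0153% lower. Here 31 had an unadjusted p under 0.05. DESeq2 called 5 higher (1.23%), where it called 0.123% of all tested genes higher. The libraries of the mutant lay wholly above their controls for 49 site genes in the first comparison (background 12.1%) and 52 in the second (background 7.2%), and wholly below for 50 (background 12.5%) and 36 (background 8.37%). For site genes of the first 200 sites the medians were 0.26 and 0.23. COL5 had log2 changes of 2.19 ± 0.52 (adjusted p = 0.183) and 1.98 ± 0.42 (adjusted p = 0.158), and CDF2 of 1.3 ± 0.53 (adjusted p = 0.764) and 2.28 ± 0.43 (adjusted p = 0.0557). The elf4-2 libraries share their leading title digits with no Col-0 library, so that comparison rests on the fitted term. Without that term 4 site genes were called higher (0.985%), beside 0.123% of all tested genes. Both this comparison and that of elf3-1 use the same Col-0 libraries.

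Growth at 27 °C against 22 °C changed many site genes, about as often as other genes. Of the 406, 87 were higher (21.4%, background 17.7%) and 65 lower (16.0%, background 16.7%). The largest fall among site genes averaging 5 CPM or more was that of LHCB1.1, from 1249 to 12228 CPM (median 5312) over 15 libraries at 22 °C to 307 to 2603 (median 654) over 20 at 27 °C. Its log2 change was −2.95 ± 0.27 (adjusted p = 1.2e-07), with some overlap between the temperatures. PSI-P fell by 1.00 ± 0.13, LHCB1.2 by 0.95 ± 0.12, and LHCB1.3 and PSAH2 by 0.71 each. Of the 17 photosystem and antenna site genes 10 were lower and 1, PSAD-2, higher (0.57 ± 0.17, adjusted p = 0.0108).

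By the same minimum the largest rises were those of AT4G37220, RTFL21 and GolS1. GolS1, a galactinol synthase whose site ranks 166, went from 3.63 to 15.9 CPM (median 6.07) at 22 °C to 13.8 to 79.4 (median 26.5) at 27 °C, a log2 change of 2.03 ± 0.13 (adjusted p = 1.55e-09). RTFL21 and AT4G37220 changed by 2.1 ± 0.16 and 2.17 ± 0.34. CDF2, CDF3, COL5, FKF1 and TOC1 rose too: CDF2 by 1.32 ± 0.19, CDF3 by 0.87 ± 0.30, COL5 by 0.90 ± 0.18, FKF1 by 0.58 ± 0.09 and TOC1 by 0.49 ± 0.12, with adjusted p between 1.79e-05 (CDF2) and 0.03 (CDF3). CCA1, at the remaining clock site, had a log2 change of −0.26 ± 0.36 (adjusted p = 0.615). These growth temperatures differ from the shift used for ChIP, so the RNA values do not describe the tissue in which the sites were mapped.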

How the data were processed

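Peak lists of 25 ChIP samples and gene counts of 38 RNA libraries were used; the ELF3-MYC sample at 27 °C replicate 1 was not analysed here. The submitters' processing notes name Trimmomatic, Bowtie2, Picard, deepTools, MACS2, STAR and TAIR10 without roles. Which tool counted reads per gene is, in the sources used here, not given. In each peak list the authors deposited a fold enrichment, a −log10 p and a −log10 q for every peak; these are the authors' own values and were used only within a list. The deposited RNA files hold raw counts per gene. Rows that name no gene (4.84% to 38.9% of a library) were left out.

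Peaks were ranked by −log10 p within each list, and the sites were found by overlap of at least 1 bp. Genes were taken from a RefSeq gene table, in which 32548 of 32833 loci (99.1%) matched. That table gives no strand, so a gene was assigned by either of its ends within 1000 bp of the summit, where its 5′ end had been planned. No promoter sequence was available here, so none was searched.

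Counts were tested with edgeR 4.0.16 (R 4.3.3, limma 3.58.1): genes reaching 1 CPM in 3 or more libraries, TMM, and a quasi-likelihood fit of all 38 libraries with line, temperature and leading title digits (21 coefficients, 17 residual degrees of freedom). P-values were adjusted by Benjamini-Hochberg over all 19587 tested genes, with 0.05 as the threshold. Standard errors come with the fitted log2 changes. The scripts were tested on simulated data. DESeq2 1.42.0, other normalization, no filter, no title term, libraries left out and other site rules were the alternatives. The 2 libraries of elf3-1, of ELF4-ox and of the cross were grown at different temperatures, and the fit gives all lines the same temperature effect. Departures of a line from that effect are thus part of the spread. The labels do not say that libraries come from separate cultures. So p-values measure the spread of these samples around the fitted terms, which may be technical. Intervals for counting error are not given, and depth limits genes near 1 CPM.

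The members and gene lists were chosen with earlier results of these data known. The chromosome 4 stretch, the photosystem list by symbol and the test of the difference between both losses of ELF3 were chosen after the values were seen. Named genes are listed genes at sites, genes of the 12 strongest sites, genes called on loss of ELF3, the 5 largest changes in each direction at 27 °C among genes averaging 5 CPM or more, and genes of the 6 sites with a gene in most and in fewest other lists; other genes were named after their values were seen. Python 3.11.15, pandas 2.3.3 and numpy 2.4.6 were used.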

Additional observations from a re-analysis of the deposited data

How the results depend on the processing

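The number of sites depends strongly on the rule. With an overlap of at least 50% there were 57 sites and 63 site genes, 6 of them higher in elf3-1. With a −log10 q of at least 10 there were 2 sites and 5 site genes, 0 of them higher by edgeR. With the first 2000 peaks of each list there were 59 sites and 93 site genes. Without the INPUT exclusion there were 787 sites and 912 site genes, 33 of them higher in elf3-1. From 17 °C replicate 2 as the starting list, 10 were higher. Without 17 °C replicate 2 there were 1150 sites and 1351 site genes, 18 of them higher. Gene ends within 500 bp gave 317 site genes with 11 higher, within 2000 bp 874 site genes, and the nearest gene only 328 with 11 higher. Leaving out the chromosome 4 stretch, an alternative chosen after seeing the data, left 11 higher. All these counts come from the same edgeR fit, in which 0.403% of all tested genes were higher in elf3-1. How many site genes were tested under each of these rules is not given here.

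Leaving out 1 library at a time gave 0 to 13 site genes higher in elf3-1 and 1 to 6 in the cross; fewer samples stand behind each such fit, and a lone sample is assumed to vary like the others. Without the 2 libraries low in root markers, elf3-1 had 36 higher and 4 lower, the cross 34 and 1, elf4-2 6 higher and elf4-2 X ELF3-ox 4 higher. The shares higher were 8.89%, 8.40%, 1.48% and 0.988%, beside 1.47%, 1.18%, 0.164% and 0.0872% of all tested genes in the same order. DESeq2 called 1 lower in elf3-1, 4 higher in elf4-2 and 5 higher in elf4-2 X ELF3-ox. Its shares over all tested genes were 0.832%, 0.102% and 0.123% in the same order. For elf4-2 X ELF3-ox, DESeq2's size factors in edgeR and no low-count filter gave 1 higher each, and for elf4-2, no title term gave 4 higher. Over all tested genes these 3 settings called 0.0306%, 0.0258% and 0.123% higher. The cause of these differences was not tested. No value of a named gene changed direction. Of 170 values with a library left out, 54 kept their side of the threshold, and of 240 under other settings 228 did. No analysis paired by replicate was possible because the labels give every sample as single and its replicate number here only follows accession order. The leading title digits were already a term of the fit, and pairs that share them were described without a test.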
